A study of Mus musculus with 6 samples.

Results

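The genes described here are 86 numbered Zfp genes expressed in mouse oocytes. They are those genes analysed here whose symbol is Zfp followed by a number and whose mean level over the 3 NP libraries was above 5 FPKM (fragments per kilobase of exon, scaled to the mapped reads of the library, a level that can be compared between genes of different length). Of the 25898 genes analysed here, 339 had such a symbol, so the members were 25.4% of the numbered Zfp genes, and 81 of the 339 were listed at 0 in all 6 libraries. The members were selected on their NP values, so that level is a description only, and the ratio of P over NP is read beside the 6808 other genes that also had a mean NP level above 5 FPKM. Just inside the limit stood Zfp110, Zfp513 and Zfp715, at mean NP levels of 5.04, 5.25 and 5.30 FPKM, and just outside it stood Zfp346, Zfp41 and Zfp282, at 4.93, 4.79 and 4.63 FPKM.

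All 6 libraries came from oocytes of aged females (AF): CD1 mice of 58 weeks of age per the labels, given pregnant mare serum gonadotropin. Fully grown oocytes were freed of follicle cells, cultured without the meiotic inhibitor IBMX for 180 min until nuclear envelope breakdown (NEBD), and treated with cycloheximide at 0.1 mg/ml for 10 min, which holds ribosomes on mRNA. Lysates of 200 oocytes a sample were separated on sucrose gradients into 10 fractions, which were pooled into a non-polysomal part (NP, free RNA and single ribosomes) and a polysomal part (P, RNA carrying several ribosomes), with 3 libraries of each. The comparison of P with NP asks how the level of a transcript in polysomes stood beside its level in the rest, where single ribosomes also lie. It does not measure the share of a transcript that was ribosome-loaded. The sources used here do not say whether the 3 replicates came from separate females, so p-values measure the spread between these samples, and in pooled oocytes fewer oocytes holding a transcript and less RNA per oocyte cannot be told apart.

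Zfp genes encode zinc finger proteins. In the C2H2 finger, a pair of cysteines and a pair of histidines hold a zinc ion, and rows of fingers read DNA, or in some members bind RNA or protein. Many also carry a KRAB domain, which recruits the corepressor Trim28 and the histone methyltransferase Setdb1 to silence retroelements and other sequences. The oocyte at NEBD does not transcribe, so a new protein has to come from a stored mRNA that is taken up by ribosomes.

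Depth differed widely between libraries. Read depths recovered from the steps in the low FPKM values were 1236809, 18078708 and 12120702 in NP 1 to 3 and 163768, 1141034 and 1547770 in P 1 to 3. For a transcript of 2 kb, 3 reads corresponded to 9.16 FPKM in P 1 and to 0.0830 FPKM in NP 2, so a value of 0 in P 1 bounds a level far less tightly than elsewhere. All 12 oocyte markers were in the table, with summed levels of 5190 to 14238 FPKM by library. The 14 granulosa cell markers summed to between 2.28 FPKM in P 3 and 131 FPKM in NP 3, and 8 of them, Fshr, Amh and Foxl2 among them, were at 0 in every library. The others, Cyp19a1, Inha, Fst, Kitl, Nr5a2 and Ptgs2, were each above 0 in some library. By library 2 to 4 of these markers were above 0, and the highest mean NP level of a granulosa marker was 44.6 FPKM. The 7 blood cell markers in the table were at 0 throughout.

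The protein models matched the name for most members. A C2H2 motif was found in 81 members and in none of Zfp259, Zfp750, Zfp839 and Zfp957, and no protein was matched for Zfp939. Zfp259 is also called Zpr1 and carries zinc fingers of another kind. The number of motifs ran from 0 to 36, in Zfp142, with a median of 8, and 35 members had 10 or more. A KRAB-like stretch was found in 30 members, which are 17.2% of the 174 KRAB Zfp genes in the table, and none was found in 55 members, which are 34.2% of the 161 Zfp genes without one. To show what a finger is, 1 finger of each of 4 members is printed as coding DNA from the GENCODE M21 transcripts on GRCm38, read along the gene, with the codons of the pair of cysteines and the pair of histidines in capitals. Zfp524 was the most abundant member in NP and the only one past the threshold in the fit reported below. Zfp296 was the next most abundant in NP. Zfp108 and Zfp61 are neighbours on chromosome 7 whose libraries behaved differently. The stretches lie at chr7:5017805-5017867 (plus strand), chr7:19579639-19579704 (plus strand), chr7:24260832-24260894 (plus strand) and chr7:24291726-24291788 (minus strand), each within a coding exon.
Zfp524: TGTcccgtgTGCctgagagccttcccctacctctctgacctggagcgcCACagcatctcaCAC
Zfp296: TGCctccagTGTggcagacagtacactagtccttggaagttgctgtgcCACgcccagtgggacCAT
Zfp108: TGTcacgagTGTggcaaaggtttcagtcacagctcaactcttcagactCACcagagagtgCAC
Zfp61: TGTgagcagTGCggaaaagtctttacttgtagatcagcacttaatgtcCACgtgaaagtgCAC

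Most of the expressed Zfp transcripts were present at low or moderate levels, and their levels were lower in P than in NP on average, as for other genes. The summed FPKM of all genes was itself lower in P, at 245885 to 393739 in the P libraries and 596975 to 632752 in the NP libraries, and its part in the ratios was not tested apart from the rescalings given below. The median member had a mean level of 15.2 FPKM in NP and 6.78 FPKM in P, against 23.9 and 10.8 FPKM for the other genes with the same NP filter. In NP, 15 members had a mean above 50 FPKM. The 8 above 100 FPKM were Zfp524, Zfp296, Zfp653, Zfp108, Zfp532, Zfp821, Zfp592 and Zfp957. In P, 8 members had a mean above 50 FPKM, namely Zfp61, Zfp592, Zfp296, Zfp532, Zfp108, Zfp524, Zfp217 and Zfp821, and 13 had a mean below 1 FPKM. By library, the median member stood at 18.3, 16.1 and 8.39 FPKM in NP 1 to 3 and at 3.10, 8.80 and 1.38 FPKM in P 1 to 3.

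**Figure D1:**
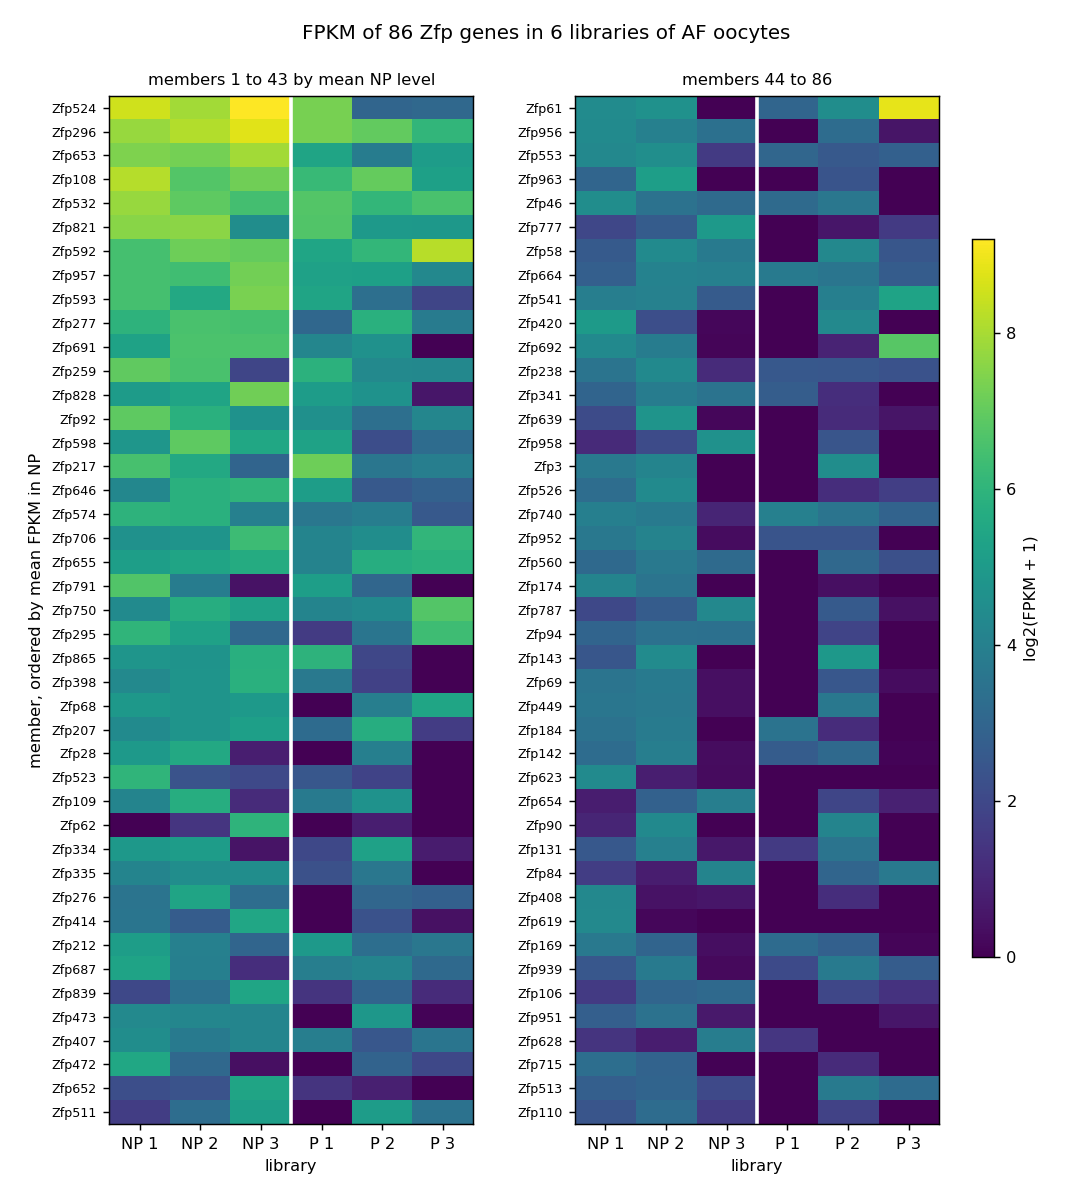
Level of each of the 86 Zfp genes in each of the 6 libraries as log2(FPKM + 1), with genes in rows ordered by mean NP level (left panel, members 1 to 43; right panel, members 44 to 86), libraries in columns and a white line between NP and P. The darkest cells are values of 0: 37 members were at 0 in P 1, 4 in P 2 and 30 in P 3.

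On the log2(FPKM + 1) scale, 81 of the 86 members (94.2%) had a fitted ratio of P over NP below 0, beside 86.4% of the other genes with the same NP filter. The median log2 ratio was -1.46 for the members, with quartiles at -2.07 and -0.59, and -1.42 for the other genes, with quartiles at -2.24 and -0.51. The median over all 10577 genes tested was itself -1.03, and 54 of the 86 members lay below it (62.8%), as did 62.0% of the other genes. The limma test called 1 member lower in P at an adjusted p under 0.1 (1.16% of members), where 2.78% of the other genes were called lower. No member was called higher (0.0%), where 0.0294% of the other genes were, and 0 of 86 had an unadjusted p under 0.05 in that direction, beside 0.25% of the other genes. At an unadjusted p under 0.05, 11 members were lower in P (12.8%, beside 23.0% of the other genes). Every P value lay below every NP value in 21 members (24.4%, beside 28.9%), all of which kept a ratio below 0 under the 3 rescalings (by the median of ratios, by quantiles and to a common FPKM sum, in that order wherever 3 values are given), and the reverse held for 0 members (0.0%, beside 0.411%). The 21 were picked by these same P and NP values, so their staying below 0 is no separate support. All of these counts are descriptions, since the filter on NP pulls the ratio down in both sets. Over all genes, the fit called 190 lower and 2 higher. With the replicate number as a block it called 659 lower and 5 higher, and 2 members lower, Zfp524 and Zfp653. After median-of-ratios rescaling it called 1 lower and 2 higher, and the share of members with a ratio below 0 became 72.1%, beside 66.6% of the other genes.

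**Figure D2:**
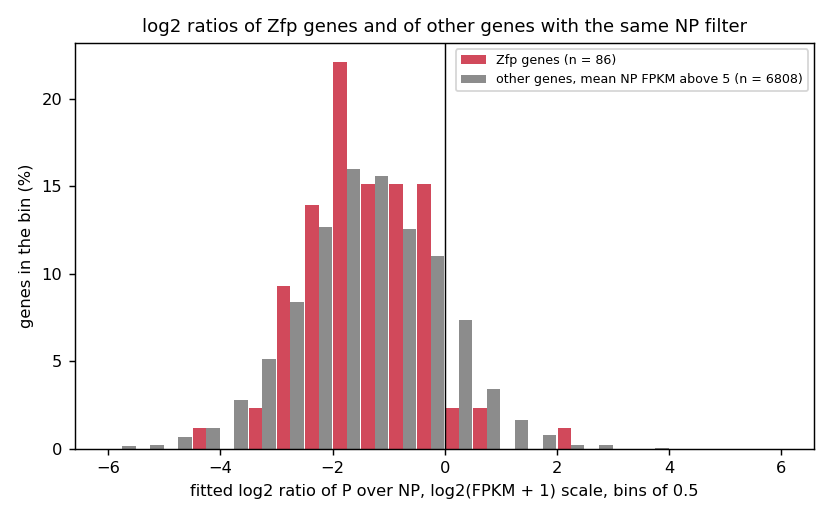
Share of genes in each bin of 0.5 of the fitted log2 ratio of P over NP, for the 86 Zfp genes (red) and the 6808 other genes with a mean NP level above 5 FPKM (grey), with a line at 0. The bulk of both lies below 0, with medians of -1.46 and -1.42, and 5 Zfp genes have a ratio above 0.

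Zfp524, whose human counterpart binds telomeric DNA, was the most abundant member in NP and the only one called lower in P in the fit reported. It stood at 368, 246 and 591 FPKM in NP 1 to 3 and at 159, 7.10 and 7.56 FPKM in P 1 to 3. All 3 P values lay below all 3 NP values, but P 1 was far above P 2 and P 3. The means were 401 ± 175 FPKM in NP and 58.0 ± 87.8 FPKM in P (SD, n = 3 each), and the log2 ratio was -4.08 with an SE of 1.01 (limma, Benjamini-Hochberg adjusted p = 0.0595, or 0.0164 with the replicate block). The gene spans chr7:5015501-5018486 on the plus strand, 1890 bases from the member Zfp865. Its exons share 668 bases with the annotated gene Gm44973 on the same strand and 73 bases with Fiz1 on the opposite strand, so reads of these genes may not have been told apart. The call was lost without any 1 of NP 1, NP 2, NP 3 and P 2, at adjusted p between 0.166 and 0.395 and log2 ratios between -4.39 and -3.35, and was kept without P 1 or P 3. It was also lost under each of 3 rescalings, at adjusted p between 0.445 and 0.626, where the log2 ratio remained between -3.19 and -3.06.

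Zfp653 encodes a corepressor of steroidogenic factor 1. Its NP values of 173, 154 and 243 FPKM all lay above its P values of 40.1, 13.6 and 32.7 FPKM, and the groups were well apart. The log2 ratio of -2.78 (SE 0.86) had a limma adjusted p of 0.129 and did not pass, but with the replicate number as a block, which takes NP and P libraries of the same number as paired, an inference that the labels do not spell out, the adjusted p was 0.0733 and it was called lower. Its exons share 471 bases with Gm49318 on the same strand. Zfp691 and Zfp398 had ratios of larger size and larger error, -3.21 (SE 1.19) and -3.15 (SE 1.23), with adjusted p of 0.1999 and 0.223. Zfp691 stood at 38.7, 95.5 and 95.9 FPKM in NP and at 17.8, 24.1 and 0 FPKM in P. Zfp398, known as the estrogen receptor partner ZER6, stood at 19.3, 26 and 56.9 FPKM in NP and at 12.2, 2.43 and 0 FPKM in P. In both genes P lay below NP throughout, and P 3 was listed at 0. Zfp414 had a log2 ratio of -2.99 (adjusted p = 0.267), from 11.1, 5.40 and 42.3 FPKM in NP to 0, 4.01 and 0.328 FPKM in P, with NP 3 far above the other NP libraries.

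Zfp296, a partner of pluripotency factors that acts on heterochromatin, had the highest mean P level among the members whose P and NP values did not overlap. It stood at 219, 279.5 and 441 FPKM in NP 1 to 3 and at 159.6, 127 and 65.8 FPKM in P 1 to 3. The groups did not overlap, and the log2 ratio was -1.44 (SE 0.73, limma adjusted p = 0.337), which shrank to between -0.51 and -0.34 under the 3 rescalings. The gene lies at chr7:19577287-19580656 on the plus strand and shares 263 exon bases with Gemin7 on the opposite strand. Zfp108, a KRAB member, stood at 287, 105 and 148 FPKM in NP and at 72.8, 131 and 36.5 FPKM in P, so that P 2 lay above NP 2 and the groups overlapped. Zfp957 kept its groups apart, with 89.6, 82.6 and 152 FPKM in NP against 37.9, 37.0 and 18.7 FPKM in P, at a log2 ratio of -1.77 and an adjusted p of 0.331. Zfp821 did not: its NP 3 value of 22.1 FPKM was below all of its P values of 103, 30.5 and 29.4 FPKM, while NP 1 and NP 2 were at 191 and 195 FPKM.

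**Figure D3:**
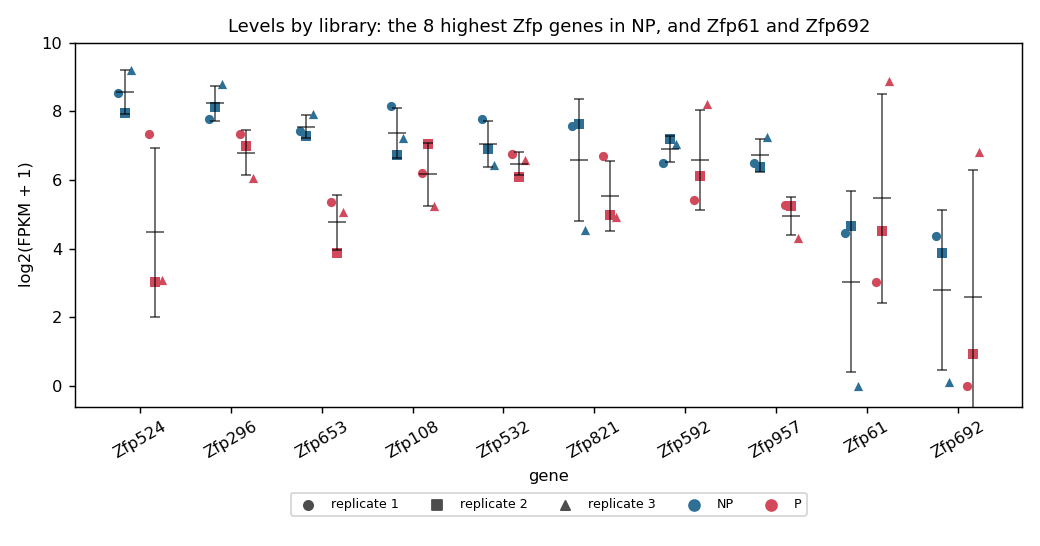
Levels as log2(FPKM + 1) of the 8 Zfp genes with the highest mean NP level and of Zfp61 and Zfp692, with NP in blue, P in red, a marker shape for each replicate number, and the mean and SD of the 3 log2 values in black. In Zfp524, Zfp296, Zfp653 and Zfp957 all P points lie below all NP points. In Zfp61 and Zfp692 the P 3 point stands far above the other P points.

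Members with roles in translation or RNA formed a list of 4: Zfp593, Zfp598, Zfp207 and Zfp106. All 4 had a ratio below 0, except that Zfp207 was above 0 after quantile normalization, and none passed the limma threshold, with 1 of 4 at an unadjusted p under 0.05 and a median log2 ratio of -1.82 (-1.01, -0.69 and -1.09 under the 3 rescalings), beside 86.4% of the other genes below 0, 2.78% called lower and 23.0% lower at an unadjusted p under 0.05. Zfp593, which matures the large ribosomal subunit, stood at 90.2, 45.5 and 162 FPKM in NP and at 40.9, 9.23 and 2.78 FPKM in P. Its groups did not overlap, and the log2 ratio was -2.91 (SE 1.06, limma adjusted p = 0.192). As 1627 bases of its exons overlap E130218I03Rik on the opposite strand, its reads may not be its own. Zfp598, the ubiquitin ligase that marks collided ribosomes, stood at 27.8, 119 and 44 FPKM in NP and at 39.0, 3.47 and 8.64 FPKM in P, so that P 1 exceeded NP 1. Its log2 ratio was -2.17 (adjusted p = 0.337). Zfp207, which brings Bub3 to kinetochores, was even between NP libraries, at 20.02, 26.3 and 36.1 FPKM, and uneven in P, at 8.25, 52.6 and 2.13 FPKM. The RNA-binding protein gene Zfp106 was near the lower limit, at 1.94, 7.11 and 7.92 FPKM in NP and at 0, 2.86 and 1.55 FPKM in P.

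Chromatin and transcription factors made up a list of 12 members, of which 11 had a ratio below 0 (6 after median-of-ratios rescaling, 4 after quantile normalization and 6 after scaling to a common FPKM sum), none passed the limma threshold and 1 had an unadjusted p under 0.05, beside the same shares of the other genes. Their median log2 ratio was -0.62, beside -1.46 for all members and -1.42 for other genes with the same filter, a difference that was not tested. That median turned to 0.20, 0.47 and 0.15 under the 3 rescalings, where the medians of all members were -0.76, -0.34 and -0.85. The list is not a full one, so these medians do not stand for all such members. Zfp524, Zfp653 and Zfp398 are not on it, at log2 ratios of -4.08, -2.78 and -3.15, and nor is Zfp750, at -0.04. Zfp532, Zfp592 and Zfp687 are related proteins that work with the chromatin reader Zmynd8. Zfp532 stood at 219, 119 and 86.4 FPKM in NP and at 107, 67.6 and 94.8 FPKM in P, with overlapping groups and a log2 ratio of -0.57 (SE 0.79). Zfp592 stood at 88.4, 145 and 131 FPKM in NP and at 42.0, 67.8 and 295 FPKM in P, where P 3 alone exceeded NP. Zfp687 was lower, at 39.1, 14.8 and 1.30 FPKM in NP and 14.4, 16.6 and 7.92 FPKM in P, with a log2 ratio of 0.24 (SE 1.22, adjusted p = 0.931). In each of the 3 related genes the ratio was smaller than its SE, and for Zfp532 and Zfp592 it turned positive under all 3 rescalings.

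Of the other chromatin factors, Zfp217, which recruits the CtBP and Lsd1 corepressors, stood at 92.4, 45.6 and 6.82 FPKM in NP and at 143, 11.3 and 14.4 FPKM in P. Replicate 1 was the highest in both fractions, and the ratio of -0.11 (SE 1.16) changed sign under 7 alternatives, the 3 rescalings among them. Zfp335, a partner of histone methyltransferase complexes, was even in NP at 17, 22.1 and 21.6 FPKM and lower in P at 3.86, 11.6 and 0 FPKM, with groups apart and an adjusted p of 0.340. Zfp652, a repressor, stood at 3.66, 4.13 and 40.5 FPKM in NP and at 1.58, 0.737 and 0 FPKM in P, and its exons share 1818 bases with Phospho1 on the same strand and 2913 with Abi3 on the opposite strand. Its groups did not overlap, but NP 3 held 83.9% of its NP signal. Zfp143, an activator at many promoters of housekeeping genes, was listed at 0 in NP 3, P 1 and P 3 and stood at 4.56 and 20.6 FPKM in NP 1 and NP 2 and at 29.1 FPKM in P 2. The BTB-domain gene Zfp131 had 0.511 to 15.2 FPKM in NP and 0 to 10.6 FPKM in P. Zfp664 had 5.92, 15.9 and 15.2 FPKM in NP and 12.8, 10.9 and 5.41 FPKM in P, with overlapping groups. Zfp110, which binds the neurotrophin receptor p75, was listed at 0 in P 1 and P 3.

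In the fit reported 5 members had a ratio above 0, and none passed the threshold. With the 3 rescalings, 62, 53 and 62 of the 86 members were below 0 in place of 81. The 5 were Zfp61, Zfp939, Zfp740, Zfp687 and Zfp84, with log2 ratios of 2.43, 0.67, 0.59, 0.24 and 0.06. Zfp61 stood at 21.0, 24.1 and 0 FPKM in NP and at 7.12, 21.7 and 467 FPKM in P. In replicates 1 and 2 P was below NP, and P 3 alone held 94.2% of the P signal. The log2 ratio of Zfp61 (SE 1.42, limma adjusted p = 0.402) fell to 0.73 without P 3 and to 0.91 without NP 3. The other 4 turned negative when 1 library was left out: without NP 3, Zfp939 was at -0.31, Zfp740 at -0.39 and Zfp687 at -0.91, and Zfp84 was between -0.68 and -0.20 without any 1 of NP 1, NP 2, P 2 and P 3. Zfp692, which binds a promoter element responsive to AICAR, had the same shape as Zfp61: 19.8, 13.7 and 0.0840 FPKM in NP and 0, 0.893 and 112 FPKM in P, so that P 3 held 99.2% of the P signal. Its mean was higher in P and its log2 ratio was -0.21 (SE 1.59), and without P 3 that ratio was -2.33. Zfp740 was more even, at 14.7, 13 and 0.940 FPKM in NP and at 15.2, 10.7 and 6.69 FPKM in P, and Zfp750, a regulator of epidermal differentiation, stood at 19.997, 52.1 and 38.1 FPKM in NP and at 17, 19.8 and 105 FPKM in P. In both genes the groups overlapped. Zfp939 had 0.174 to 12.8 FPKM in NP and 3.22 to 12.5 FPKM in P, and 258 bases of its transcript are 96.1% identical to the pseudogene Gm28455.

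**Figure D4:**
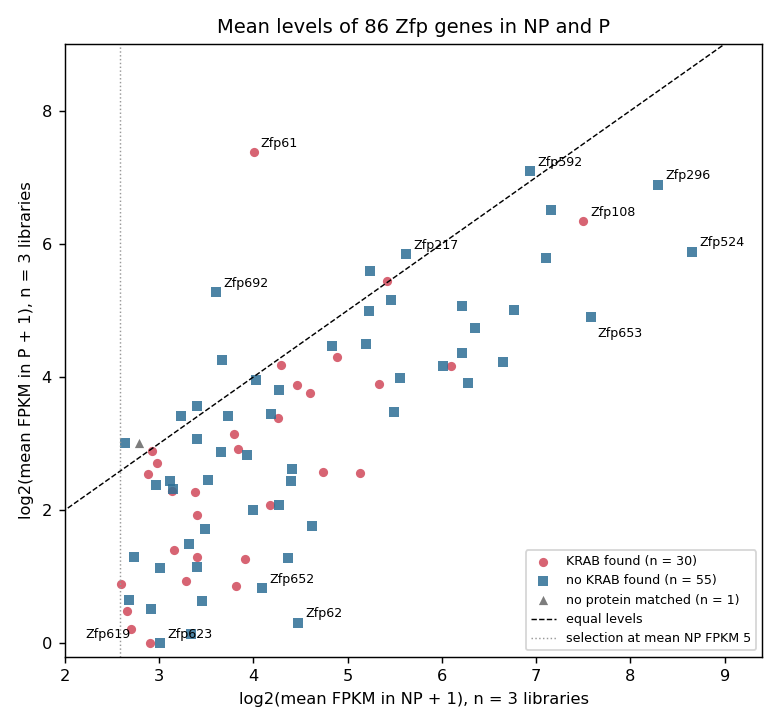
Mean level in P against mean level in NP for the 86 Zfp genes, both as log2(mean FPKM + 1) over 3 libraries, with KRAB members in red, members without a KRAB in blue and the gene with no matched protein in grey. The dashed line marks equal levels and the dotted line the selection at 5 FPKM in NP. There are 11 members above the dashed line, Zfp61 and Zfp692 farthest from it, and Zfp623 and Zfp619 lie at 0 in P.

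Detection in P was uneven. Of the 86 members, 49 were above 0 in P 1 (57.0%), 82 in P 2 (95.3%) and 56 in P 3 (65.1%), beside 72.4%, 91.9% and 76.6% of the other genes with the same NP filter. The members thus stood below the other genes in P 1 and P 3 and above them in P 2, and no test was made of that difference. In all 3 P libraries, 35 members were above 0 (40.7%, beside 61.3%), 33 were in 2 of them, 16 in 1, and Zfp623 and Zfp619 in none. Members also had a lower NP level than the other genes, so the shares are given within bands of NP level. At a mean NP level of 5 to 10 FPKM, 13.3% of 30 members and 31.6% of 1528 other genes were above 0 in all 3 P libraries. From 10 to 20 FPKM the shares were 36.4% and 48.1%, and from 20 to 50 FPKM 47.4% and 67.6%. Above 50 FPKM they were 93.3% of 15 members and 87.7% of 2071 other genes, the order being the other way. The level of 3 reads in the 37 members at 0 in P 1 had a median of 4.45 FPKM and ran from 1.76 to 9.33 FPKM, so a lower level in P 1 was not detectable at this depth for many of them. Of those 37, only 2 had a mean NP level below their own 3-read level.

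**Figure D5:**
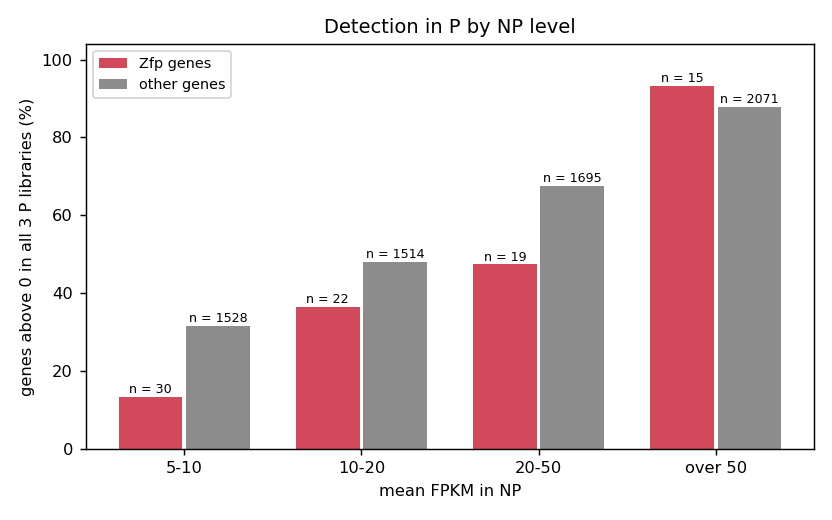
Share of genes above 0 FPKM in all 3 P libraries, in 4 bands of mean NP level, for Zfp genes (red) and other genes (grey), with the number of genes over each bar. The red bar is lower in the 3 bands up to 50 FPKM and higher in the band above 50 FPKM, where it rests on 15 genes.

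In many members 1 library carried most of the signal. A single P library held more than 90% of the summed P level in 26 members (30.2%, beside 17.9% of the other genes), and a single NP library did so in 5 members (5.81%, beside 4.66%). Those 5 were Zfp62, Zfp623, Zfp90, Zfp408 and Zfp619. Zfp623 was at 20.3, 0.718 and 0.201 FPKM in NP, and Zfp619, a KRAB gene with 33 finger motifs, was at 19.4, 0.120 and 0 FPKM, with both listed at 0 throughout P. Each of them is a member only through NP 1. The highest P value was in P 2 for 43 of the 84 members detected in P (51.2%, beside 38.6% of the other genes) and in P 3 for 13 (15.5%, beside 27.6%). The members' median ratio to NP minus that of the other genes was -0.29 in P 1, 0.42 in P 2 and -0.32 in P 3 on the log2 scale, so that members were relatively low in P 1 and P 3 and relatively high in P 2. Ranked across the 86 members, the P libraries were less alike than over the other genes, with Spearman's rho of 0.41 to 0.47 between P libraries, beside 0.55 to 0.64. Between NP libraries rho was 0.32 to 0.63, beside 0.53 to 0.75. These are correlations across genes that share libraries and depth, given as a description. The other genes spanned a wider range of mean NP level, up to 12850 FPKM beside 401 FPKM in the members. Levels were not matched for these correlations.

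KRAB members had lower median levels than members without a KRAB and nearly the same median ratio, differences that were not tested. The 30 KRAB members had median levels of 13.2 FPKM in NP and 4.91 FPKM in P, and 23.3% of them were above 0 in all 3 P libraries. The 55 members without a KRAB had median levels of 18.3 and 9.69 FPKM, and 49.1% were above 0 in all 3. The median log2 ratios were -1.47 and -1.48. Zfp108 was the most abundant KRAB member in NP and Zfp61 in P, while 28 of the 30 had a ratio below 0 (24, 20 and 24 under the 3 rescalings) and none was called, beside 86.4% below 0 and 2.78% called lower among the other genes. A list of KRAB proteins known for silencing retroelements or keeping imprints, which is not a full one, held 16 genes analysed here, and none of these 16 reached the NP limit. Of the KRAB corepressor pathway, 33 genes were in the table and 30 were tested: limma called none lower or higher (0.0%, beside 1.80% and 0.0189% of all genes tested), 1 had an unadjusted p under 0.05 (beside 15.5% of all genes tested that were lower at that level), 25 had a ratio below 0 (17, 13 and 17 under the 3 rescalings, beside 80.1% of all genes tested in the fit reported), and the median log2 ratio was -0.88 (-0.14, 0.30 and -0.29 under the rescalings), beside -1.03 over all genes tested. With the replicate block 1 of the 30, Pphln1, was called lower. Trim28 stood at 56.5, 53.4 and 86.4 FPKM in NP and at 48.3, 27.3 and 129 FPKM in P. Setdb1 stood at 121, 65.3 and 70.7 FPKM in NP and at 66.8, 51.8 and 34.1 FPKM in P. Both were present in every library, at levels above most KRAB members, and neither ratio exceeded its SE.

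Chromosome 7 held 25 members (29.1%), beside 25.4% of all numbered Zfp genes and 7.43% of the other genes with the same NP filter. Chromosome 17 held 5 members (5.81%, beside 11.2% of the numbered Zfp genes) and chromosome 13 held 4 (4.65%, beside 9.14%). In all, 17 members lay within 100 kb of another member. A run of 4 KRAB members lies on chromosome 7 between Zfp109, which starts at 24228048, and Zfp94, which ends at 24316666, with Zfp108 and Zfp61 between them. Their levels differed widely in spite of their nearness. Zfp108 had a mean of 180.1 FPKM in NP, Zfp109 23.2, Zfp61 15.0 and Zfp94 8.75. Zfp94, 472 bases from Zfp61, stood at 6.91, 9.86 and 9.49 FPKM in NP and at 0, 2.75 and 0 FPKM in P, with groups apart and an adjusted p of 0.289. Zfp109 stood at 16.7, 51.7 and 1.19 FPKM in NP and at 12.6, 24.9 and 0 FPKM in P, below NP of the same number each time. Coding stretches of Zfp109 and Zfp94 of 124 bases are 95.2% identical, so short reads there may be shared. A near copy was found for 13 members, defined as at least 95% identity over 100 or more bases of the coding sequence, or of the transcript for Zfp939. The longest was between Zfp28 and the processed pseudogene Gm3203 (97.5% over 2270 bases). Exons of 37 members overlapped another gene, 31 on the opposite strand and 10 on the same strand, and the strand setting of the counting is not given in the sources used here.

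Translation of stored oocyte mRNAs is known to depend on the cytoplasmic polyadenylation element, a U-rich motif near the 3′ end that Cpeb1 binds. The last 100 bases of the GENCODE M21 transcript, where the 3′ UTR was at least that long, were searched on the transcript strand for TTTTAT and for the polyadenylation signal AATAAA, 2 motifs that do not share a sequence and were counted apart. TTTTAT was found in 12 of 79 members (15.2%) and in 882 of 5930 other genes (14.9%), and AATAAA in 48 members (60.8%) and 64.6% of the other genes. All 12 members with TTTTAT had a ratio below 0 (11, 10 and 11 under the 3 rescalings) and none was called, beside 94.2% of all members below 0 and 86.4% below 0 and 2.78% called lower among the other genes. Their median log2 ratio was -1.54 (-0.76, -0.51 and -0.86 under the rescalings), beside -1.48 in the 67 members without the motif, and nothing is read from these counts about the motif. The stretches of the 4 most abundant of them in NP are printed with the motif in capitals, from GENCODE M21 on GRCm38 along the transcript. The motif starts 11, 16, 34 and 50 bases from the annotated transcript end.
Zfp296: aaaccatctcctTTTTATtctta
Zfp821: caaataaattaaTTTTATctttactggc
Zfp957: atataaataaatTTTTATtaaactaataaa
Zfp598: ttgcctctgacaTTTTATaaaagacagttt

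Without regard to the NP level, 178 numbered Zfp genes passed the filter for testing, a mean above 1 FPKM in NP or P. Of these, limma called 1 lower in P, Zfp524 (0.562%, beside 1.80% of all genes tested), and 0 higher (0.0%), with 0 at an unadjusted p under 0.05 in that direction (0.293% over all genes tested). A ratio below 0 was seen in 132 (74.2%, beside 80.1% of all genes tested), 12 had an unadjusted p under 0.05, all of them lower in P (6.74%, beside 15.5%), and their median log2 ratio was -0.67, beside -1.03 for all genes tested. The members' median of -1.46 holds the effect of the NP filter, which this wider set does not carry. The wider set has a filter effect of its own, as have all genes tested, since genes could enter through P alone. Zfp326 and Zfp14 did so, at mean NP levels of 0 and 0.098 FPKM. The 178 also had a median NP level of 4.60 FPKM, beside 10.2 FPKM over all genes tested, and levels were not matched.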

How the data were processed

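Libraries were made by whole-transcriptome amplification of ribosomal RNA-depleted RNA from NP and P fractions of AF oocytes. Per the submitters' processing notes, adapters were removed by Trim Galore 0.4.1 and HISAT2 2.0.5 placed the reads on GRCm38. The authors then quantified genes in Seqmonk, and the deposited values are FPKM. Which annotation was counted, and whether strand was used, are not stated in these sources. The table also holds an authors' mean column for each fraction, which was not used. YF oocytes were not analysed here.

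The table had 25965 rows. The selection rule excepts 1 numbered Zfp symbol, which is not reported here and was left out of every count and of the fit, not of the members alone. In all, 58 symbols were duplicated and the row with the highest mean was kept. P was compared with NP in limma 3.58.1 (R 4.3.3) on log2(FPKM + 1), with a variance trend, for genes with a mean above 1 FPKM in either fraction, with two-sided tests, Benjamini-Hochberg adjustment and a threshold of 0.1. The study's methods pool the gradient of each sample into an NP and a P part, and the labels give both parts the same replicate numbers, and the number was used as a block in an alternative fit. That the same number marks the same sample is inferred and not spelled out. Deviations of same-numbered libraries correlated at 0.0634, 0.0991 and 0.116 and those of other pairs at -0.0886 to 0.0208. An exact permutation test of 3 against 3 cannot go below p = 0.1. Fold changes understate the change of low genes. Depth was recovered from FPKM steps and exon lengths of GENCODE M21 (84.4 to 90.0% of low values were whole within 0.02 reads); what a step counts is not settled, the reads come from amplified cDNA, and read levels cover counting error only. Members matched GENCODE by symbol (82) or synonym (4). Finger and KRAB patterns were searched in translated coding sequences, and near copies found with BLAST 2.17.0. The members, the gene lists and the rule for named genes were chosen with earlier results of these data known. Named were members of the role lists, the 8 highest in NP and in P, the 6 highest and 6 lowest log2 ratios, those past the threshold, those at 0 throughout P and those beside the NP limit; Trim28 and Setdb1 were named of the KRAB corepressor pathway. Zfp members named outside the rule, such as Zfp94, Zfp109 and the 5 with 1 dominant NP library, Pphln1 and the printed fingers were chosen after their values were seen.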

Additional observations from a re-analysis of the deposited data

How the results depend on the processing

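Depth limits what P 1 can show, since 3 reads of a 2 kb transcript were worth 9.16 FPKM there, and 3 libraries a fraction leave wide errors. The number of members called lower in P (1 in the fit reported) was 0 at a pseudocount of 0.1, with no filter on low values, after each of 3 rescalings (median of ratios, quantiles, a common FPKM sum), without the variance trend and at a threshold of 0.05; the same 0 calls were made among all numbered Zfp genes under these alternatives. Leaving out 1 library gave 0 to 2 calls, in the members and in all numbered Zfp genes. The pair of calls were Zfp524 and Zfp593 without P 1, and Zfp524 and Zfp653 without P 3. No alternative called a member higher. Over all genes, the 190 calls lower in P became 67 at a pseudocount of 0.1, 1 with no filter, 1, 2 and 4 after the same rescalings, 15 without the trend, 62 at a threshold of 0.05, and 1 to 328 when leaving out 1 library, and the 2 calls higher became 0 with no filter and without the trend, and 0 to 4 when leaving out 1 library. The KRAB corepressor pathway had 1 call in place of 0 with a filter at 5 FPKM, and 0 to 1 when leaving out 1 library. The cause was not tested in any of these.

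The replicate number as a block gave 2 calls lower among the members and among all numbered Zfp genes (Zfp524 at an adjusted p of 0.0164 and Zfp653 at 0.0733), 659 lower and 5 higher over all genes, and 1 in the KRAB corepressor pathway. The block, whose pairing is inferred from shared numbers, changed no other call among the named members.

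The median log2 ratio of members minus that of other genes, -0.04 in the fit reported, ran from -0.37 to 0.15 when leaving out 1 library and from -0.29 to 0.10 under the other alternatives, less than its spread between P libraries. Rescaling moved the median of all genes tested from -1.03 to -0.43 (median of ratios), 0.0027 (quantile) and -0.50 (common sum), and that of the members to -0.76, -0.34 and -0.85. Detection in P depended on the NP limit: with members above 2 FPKM, 86.9% were above 0 in P 2 and 52.3% in P 3, and with members above 10 FPKM, 73.2%, 100% and 75% were above 0 in P 1, P 2 and P 3. Counting only values above 1 FPKM gave 51.2% in P 3. Of 493 values of the 33 named members under alternatives, 55 in 14 members changed sign, 27 of them when leaving out 1 library; none of the 14 had passed the threshold.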

Other observations

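Lists that hold numbered Zfp genes outside the NP limit are given here as values. Of 16 KRAB proteins known for silencing retroelements or keeping imprints that were analysed here, 5 were tested, 1 had a log2 ratio below 0, none passed the limma threshold (0 at an unadjusted p under 0.05), and the median log2 ratio was 0.42. Zfp14 and Zfp445 passed the filter for testing only through 1 P library each, at 64.9 FPKM in P 1 and 4.14 FPKM in P 2. Their mean NP levels were 0.098 and 0.426 FPKM, so the filter favoured their ratios above 0. All 16 lie below the NP limit, which also favours higher ratios, and nothing is read from the median. Zfp91 and Zfp451, listed as ubiquitin and SUMO ligases, had ratios above 0, with a median of 0.17 and no call. Zfp91, at a mean NP level of 0.611 FPKM, likewise passed the filter only through P 2, at 4.97 FPKM. Of the list of translation and RNA roles, with its 4 members included, 11 genes were in the table, 9 were tested and 6 had a ratio below 0 (6, 4 and 6 when rescaled by the median of ratios, by quantiles and to a common FPKM sum). In the fit reported, all 4 members were among the 6 below 0. Of the list of chromatin and transcription roles, with its 12 members included, 25 were in the table, 21 were tested and 15 had a ratio below 0 (9, 5 and 9 after the same scalings, where the median turned from -0.36 to 0.42, 0.61 and 0.30). In the fit reported, 11 of the 15 below 0 were members. Zfp326 of the former list and Zfp292 and Zfp423 of the latter also passed the filter for testing only through P. Over all genes tested, 80.1% had a ratio below 0 and 1.80% were called lower. No gene of either list, members included, passed the threshold.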
